A study of Rattus norvegicus with 15 samples.

Results

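Contextual fear conditioning was compared with no training in dorsal CA1 of the rat hippocampus under a scrambled siRNA. The comparison took the 10 of 15 libraries labelled with the scrambled siRNA: 5 from trained rats and 5 from naive rats. Of 22314 genes in the count table, 14880 had enough counts to be tested. The trained group was wild-type male Sprague-Dawley rats aged 8 to 9 weeks that had scrambled Accell siRNA, a form taken up without a transfection reagent, injected into dorsal CA1, and were trained 5 days after the injection. The naive group had the same strain, sex, age range, genotype and scrambled siRNA and no training. Both groups thus carry an injection track and siRNA, and an uninjected group was not analysed here. The sources used here do not give how long after training the tissue was taken. They also give no time from injection to tissue collection for the naive group, so that interval may differ between the groups. The labels describe the tissue as holding all brain cell types and do not state that each library came from its own rat. Each p-value thus reflects no more than the spread among the libraries it was computed from, which may be technical. The gene tests took their spread from all 15 libraries, including the 5 of trained rats given Rnf20 siRNA.

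In contextual fear conditioning an animal receives a shock in a chamber and later fears that chamber. The dorsal hippocampus is needed to form that memory, and CA1 pyramidal neurons are its main output cells. Synaptic activity in such neurons quickly switches on transcription factor genes of the AP-1, Egr and Nr4a families through CREB and serum response factor, and these in turn act on genes for synaptic proteins. A shock also raises corticosterone, which acts on transcription through the glucocorticoid receptor.

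Levels below are CPM, counts scaled to a common library size that was itself adjusted by TMM (trimmed mean of M values). Fold changes are log2 of trained over naive, with standard errors (SE) and adjusted p-values from edgeR's quasi-likelihood test over all 14880 genes. Values by library run in the order of replicates 5, 6, 10, 15 and 16 for trained rats and 1, 2, 9, 11 and 12 for naive rats. Total counts were 15342480 to 20644425 in trained libraries and 14249375 to 17046535 in naive libraries. Transcripts of the mitochondrial genome took 11.1% ± 1.97 of counts in trained and 11.6% ± 0.856 in naive libraries (SD, n = 5 each), a difference of -0.455 percentage points (two-sided exact permutation p = 0.667 over 252 divisions, of which the smallest possible p is 0.00794). Without trained replicate 15, which had the lowest share, the difference was 0.205 points. The CA1 label was checked against Wfs1, which marks CA1 pyramidal neurons in rodents. Wfs1 was at 132 to 1020 CPM in trained and 195 to 597 CPM in naive libraries, so it was detected in every library, with the lowest value in trained replicate 10. Markers of tissue outside CA1 were unequal between libraries. Choroid plexus markers averaged -0.64 and 0.13 log2 CPM in trained replicates 5 and 16, against 3.94 to 5.66 in the other trained and 4.17 to 5.79 in the naive libraries. Striatal markers averaged 5.69 log2 CPM in trained replicate 10, against 2.69 to 3.15 in the other trained and 3.11 to 4.80 in the naive libraries.

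No gene passed an adjusted p under 0.05 by edgeR, and the smallest adjusted p was 0.379. An edgeR fit of only the 10 libraries compared called none either, with a smallest adjusted p of 0.172. At an unadjusted p under 0.05, 985 genes were higher in trained libraries (6.62% of those tested) and 499 were lower (3.35%), together 9.97% of genes. DESeq2's Wald test placed 39 genes higher (0.226% of the 17236 with an adjusted p) and 14 lower (0.0812%) at an adjusted p under 0.05, and limma-voom placed 0 in either direction. All 53 genes called by DESeq2 had an unadjusted edgeR p under 0.05. In 163 genes every trained library exceeded every naive library (1.1% of those tested), and in 98 every trained library was below every naive one (0.659%). The median log2 fold change of all genes tested was -0.01, with 47.2% above 0 and 52.8% below. Trained libraries spread more widely than naive ones: the SD of log2 CPM was larger among trained libraries for 10771 genes (72.4%), with a median SD of 0.244 in trained and 0.174 in naive libraries. Leaving out trained replicate 15 lowered the counts at an unadjusted p under 0.05 to 541 higher and 330 lower genes. Because no gene passed the threshold of the main test, every gene below is described by its values.

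The higher genes of smallest p included a cytoskeletal gene, a fast transcription factor, a clock gene, an interferon factor, mitotic genes and a chaperone. Tubb2b, a beta-tubulin abundant in growing and regenerating neurons, was at 187, 219, 210, 212 and 194 CPM in trained libraries, against 151, 137, 135, 147 and 153 CPM in naive libraries (a log2 fold change of 0.50, with an SE of 0.08; edgeR adjusted p = 0.379; DESeq2 adjusted p = 0.00024). The groups did not overlap, and the gap between them was wider than the spread within either. Dtx2, an E3 ubiquitin ligase of the Deltex family that acts in Notch signalling, was at 11.1, 11.8, 11.7, 11.7 and 11.3 CPM in trained libraries, against 8.47, 8.73, 7.03, 8.41 and 8.98 CPM in naive libraries (0.47, SE 0.10; adjusted p = 0.379). Trained libraries again lay in a narrow band above all naive ones. Irf9, the DNA-binding subunit of the factor that interferons activate, was at 26.2, 39.9, 43.8, 47.4 and 34.4 CPM in trained libraries, against 20.9, 25.8, 22.5, 23.8 and 24.2 CPM in naive libraries (0.71, SE 0.15). The groups did not overlap, though trained replicate 5 lay only just above the highest naive library. Timp1, a metalloproteinase inhibitor that reactive astrocytes make, was at 14.4, 17.6, 58.4, 55.5 and 40.6 CPM in trained libraries, against 5.89, 6.38, 5.82, 8.85 and 4.13 CPM in naive libraries (2.58, SE 0.59). It had the largest fold change of these 12 genes and a wide spread within the trained group. With 1 surrogate variable in the model it was the gene that passed the threshold, at a fold change of 1.51 and an adjusted p of 0.0128. Tpm3, a tropomyosin of the actin cytoskeleton, was at 134 to 176 CPM in trained and 118 to 126 CPM in naive libraries (0.35, SE 0.08), with no overlap. Ybx1-ps3, named as a pseudogene of Ybx1, was at 12.1 to 16.5 CPM in trained and 7.03 to 10.5 CPM in naive libraries. Its reads may belong to the parent gene, so this value is uncertain. The remaining higher genes, Junb, Per1, Birc5, Mcm4, Plk1 and Dnajb1, are described with their groups.

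The lower genes of smallest p included a protease, an organic anion transporter and a receptor phosphatase. Capn5, a calcium-dependent protease of the calpain family, was at 46.3, 46.1, 53.3, 47.9 and 44.8 CPM in trained libraries, against 65.4, 56.6, 62.8, 57.8 and 58.3 CPM in naive libraries (-0.34, SE 0.07; edgeR adjusted p = 0.379; DESeq2 adjusted p = 0.00647). The groups did not overlap. Slc22a8, the organic anion transporter OAT3 of brain barriers, was at 7.85, 10.5, 11.1, 7.54 and 8.69 CPM in trained libraries, against 13.9, 12.8, 16.8, 13.2 and 15 CPM in naive libraries (-0.65, SE 0.14). Every trained library was below every naive one. Choroid plexus markers were also lower in trained replicates 5, 6 and 16 than in any naive library (-0.64, 3.94 and 0.13 mean log2 CPM, against 4.17 to 5.79). In trained replicates 10 and 15 those markers were inside the naive range (5.66 and 4.57), and Slc22a8 was below it. The part of choroid plexus in the Slc22a8 values was not tested. Ptprd, a receptor tyrosine phosphatase that organises synapses from the presynaptic side, was at 225, 209, 212, 193 and 175 CPM in trained libraries, against 275, 276, 268, 264 and 245 CPM in naive libraries (-0.39, SE 0.10). The groups did not overlap.

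The other lower genes of this rank were of varied kinds. Car2, the carbonic anhydrase of oligodendrocytes and choroid plexus, was at 243, 224, 305, 282 and 319 CPM in trained libraries, against 375, 369, 453, 394 and 371 CPM in naive libraries (-0.52, SE 0.12), with no overlap. Opalin, a myelin membrane protein, was at 140 to 276 CPM in trained and 247 to 375 CPM in naive libraries (-0.71, SE 0.17). Daam2, a formin of Wnt signalling in the oligodendrocyte lineage of mice, was at 38.9 to 48.4 CPM in trained and 47.0 to 64.1 CPM in naive libraries (-0.42, SE 0.10). Opalin and Daam2 overlapped between the groups. Mecom, a zinc finger transcription factor, was at 1.78 to 3.49 CPM in trained and 4.28 to 5.84 CPM in naive libraries (-0.74, SE 0.18). Susd5, a sushi-domain protein, was at 1.51 to 2.16 CPM in trained and 2.85 to 4.02 CPM in naive libraries (-0.87, SE 0.22), and neither of these low-level genes overlapped between the groups. Cnnm3, a relative of magnesium transporters, was at 30.7 to 38.3 CPM in trained and 41.4 to 47.7 CPM in naive libraries. The ring finger gene rnf141 was at 40.2 to 45.3 CPM in trained and 46.3 to 57.0 CPM in naive libraries, and Zfp612 at 27.5 to 33.0 CPM in trained and 35.3 to 41.9 CPM in naive libraries. Tmc7, of a family of transmembrane channel-like proteins, was at 8.09 to 9.86 CPM in trained and 9.55 to 15.0 CPM in naive libraries and overlapped. A further 1 gene without a symbol had a p among those of these 12 genes and is not named.

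**Figure D1:**
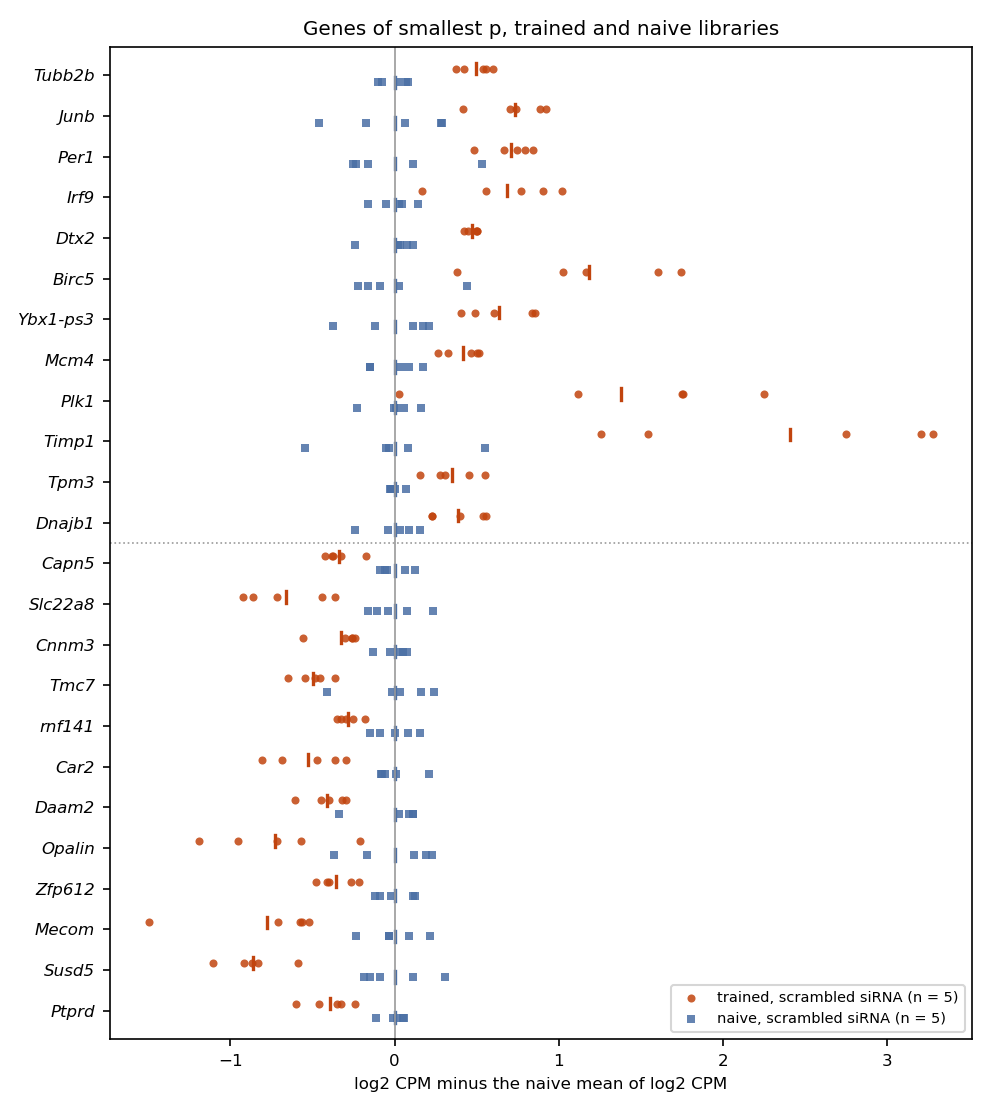
Each row is 1 of the 12 higher (above the dotted line) and 12 lower genes of smallest p with a mean of at least 1 CPM. Circles are the 5 trained and squares the 5 naive libraries, placed by log2 CPM minus the naive mean, and short bars are group means. Trained circles of Tubb2b and Dtx2 form narrow bands apart from the naive squares, while Timp1 and Plk1 spread widely among trained libraries.

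Most AP-1, Egr and Nr4a genes, transcription factors that neuronal activity induces, had higher means in trained libraries, led by Junb and Egr2. Fold changes were above 0 for 6 of 7 AP-1 subunits, against 47.2% of all genes, and their median was 0.25. Of 7 Egr and Nr4a factors 6 were above 0, with a median of 0.49. Junb, a Jun-family member of AP-1, was at 48.4, 42.6, 35.0, 49.6 and 43.8 CPM in trained libraries, against 27.4, 31.8, 32, 23.2 and 19.0 CPM in naive libraries (0.72, SE 0.13; edgeR adjusted p = 0.379; DESeq2 adjusted p = 0.00217). Every trained library was above every naive one, trained replicate 10 by the least. Egr2, a zinc finger factor also known as Krox20, was at 7.66, 7.12, 4.34, 6.49 and 6.5 CPM in trained libraries, against 1.65, 2.81, 3.45, 0.628 and 0.855 CPM in naive libraries (1.76, SE 0.42; edgeR adjusted p = 0.379; DESeq2 adjusted p = 0.0251). The groups did not overlap, and trained replicate 10 was again nearest to the naive range. Over the 20 alternative settings the fold change ran from 0.62 to 0.79 for Junb and from 1.53 to 2.09 for Egr2.

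The promoter windows of Junb and Egr2 are shown because these are the activity-induced factors whose groups did not overlap. They are RefSeq windows on GRCr8, 250 bases before to 50 after the annotated start, at chr19:40080876-40081175 on the plus strand for Junb and chr20:21054392-21054691 on the minus strand for Egr2, written along the gene's strand. The counts were made on another build, Rnor_6.0. Capitals mark the core CRE motif TGACG, read on both strands and contained in the full CRE TGACGTCA, and the CArG box, the serum response element.
Junb: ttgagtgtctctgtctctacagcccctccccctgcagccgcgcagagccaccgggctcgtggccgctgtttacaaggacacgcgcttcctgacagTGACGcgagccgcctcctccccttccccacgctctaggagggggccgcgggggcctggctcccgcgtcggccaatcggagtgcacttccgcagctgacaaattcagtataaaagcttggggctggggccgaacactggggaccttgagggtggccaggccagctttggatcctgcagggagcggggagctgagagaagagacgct
Egr2: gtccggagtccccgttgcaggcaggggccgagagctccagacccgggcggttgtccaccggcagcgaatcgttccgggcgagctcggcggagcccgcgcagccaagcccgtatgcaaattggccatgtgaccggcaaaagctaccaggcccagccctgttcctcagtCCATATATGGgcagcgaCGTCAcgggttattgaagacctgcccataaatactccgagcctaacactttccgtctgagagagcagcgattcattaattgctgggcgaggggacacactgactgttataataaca
The core CRE lies at positions -155 to -151 from the annotated start in Junb and, read on the opposite strand, at -66 to -62 in Egr2. Egr2 also holds a CArG box at positions -83 to -74, and the Junb window holds none. TGACG was in the windows of all 5 Egr and Nr4a factors that had one and in 3 of 5 AP-1 subunits, against 21.2% of all 33469 windows and 30.6% of those of tested genes. The CArG box was in 2 of the 5 Egr and Nr4a windows, against 1.64% of all windows. A match describes the letters of a window only.

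Other AP-1, Egr and Nr4a genes had higher means with overlap. Fos, the AP-1 partner of the Jun proteins, was at 15.3, 11.6, 20.0, 23.2 and 18.2 CPM in trained libraries, against 13.2, 7.96, 15.7, 6.59 and 3.42 CPM in naive libraries (0.91, SE 0.32; edgeR adjusted p = 0.408). Trained replicates 10, 15 and 16 lay above all naive libraries and replicates 5 and 6 did not. Injury-responsive phagocyte markers divided the trained libraries likewise (6.33, 6.67 and 5.73 mean log2 CPM, against 4.82 and 4.94 in replicates 5 and 6). The part of those cells in the Fos values was not tested. Egr1, a plasticity-linked zinc finger factor, was at 155, 157, 84.8, 112 and 166 CPM in trained libraries, against 84.2, 102, 142, 78.9 and 63.9 CPM in naive libraries (0.52, SE 0.29; adjusted p = 0.578). Trained replicates 5, 6 and 16 exceeded every naive library, a different set from that of Fos. Nr4a1, an orphan nuclear receptor, was at 56.9, 70.0, 29.3, 45.7 and 56.2 CPM in trained libraries, against 34.0, 39.5, 47.7, 31.9 and 24.2 CPM in naive libraries (0.54, SE 0.24; adjusted p = 0.468). Trained replicates 10 and 15 lay within the naive values of Egr1 and Nr4a1, and replicate 10 had the lowest CA1 marker level. Jun was at 69.5 to 103 CPM in trained and 57.9 to 77.1 CPM in naive libraries, Fosb at 4.37 to 6.13 and 2.20 to 6.62 CPM in the same order, and Egr4 at 7.31 to 11.3 and 5.34 to 11.6 CPM, all with overlap. The median of the Egr and Nr4a list was 0.31 without trained replicates 5 and 16 and 0.68 without replicates 10 and 15. The AP-1 median was 0.15 without trained replicate 15, 0.39 without replicate 16 and 0.40 with 1 surrogate variable.

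Arc, Npas4 and Bdnf, also induced by activity, did not share that separation. Arc, a postsynaptic protein that controls AMPA receptor traffic, was at 188, 172, 85.6, 115 and 152 CPM in trained libraries, against 111, 96.1, 184, 82.0 and 43.8 CPM in naive libraries (0.46, SE 0.35; edgeR adjusted p = 0.681). Naive replicate 9 reached the level of the highest trained libraries. Npas4, a factor induced by calcium entry in neurons, was at 4.66, 4.77, 4.64, 3.20 and 3.01 CPM in trained libraries, against 5.16, 7.91, 8.30, 4.39 and 1.78 CPM in naive libraries (-0.45, SE 0.37; adjusted p = 0.713). Bdnf, the neurotrophin of hippocampal plasticity, was at 27.0, 26.7, 12.2, 25.0 and 17.7 CPM in trained libraries, against 22.8, 27.2, 20.4, 20.2 and 33.1 CPM in naive libraries (-0.19, SE 0.26; adjusted p = 0.839). Both trained means were lower and both genes overlapped between the groups, with trained replicates 10 and 16 below every naive library for Bdnf. The Bdnf fold change was 0.12 with 1 surrogate variable. Sik1, a kinase that restrains CREB coactivators, was at 6.93 to 11.0 CPM in trained and 4.20 to 8.30 CPM in naive libraries (0.40, SE 0.18). Of 23 activity-induced effectors 15 were above 0, with a median of 0.07 that ran from 0.01 without trained replicate 5 to 0.14 without trained replicate 16 or naive replicate 1. Gadd45b, a stress-induced gene linked to DNA demethylation, was at 8.69 to 13.7 CPM in trained and 6.63 to 10.7 CPM in naive libraries, and its relative Gadd45g at 8.21 to 16.6 CPM in trained and 6.98 to 9.72 CPM in naive libraries. Of 13 inhibitors of ERK signalling 9 were above 0, with a median of 0.14 that was 0.04 without trained replicate 6, 0.05 without naive replicate 11 and 0.09 without trained replicate 15. Among them Spry1 was at 4.41 to 9.68 CPM in trained and 2.85 to 5.04 CPM in naive libraries, and Dusp6, an ERK phosphatase, at 44.9 to 90.5 CPM in trained and 43.4 to 62.1 CPM in naive libraries. Dusp10, a phosphatase of the related p38 and JNK kinases, ran the other way, at 4.23 to 7.03 CPM in trained and 5.13 to 8.32 CPM in naive libraries.

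**Figure D2:**
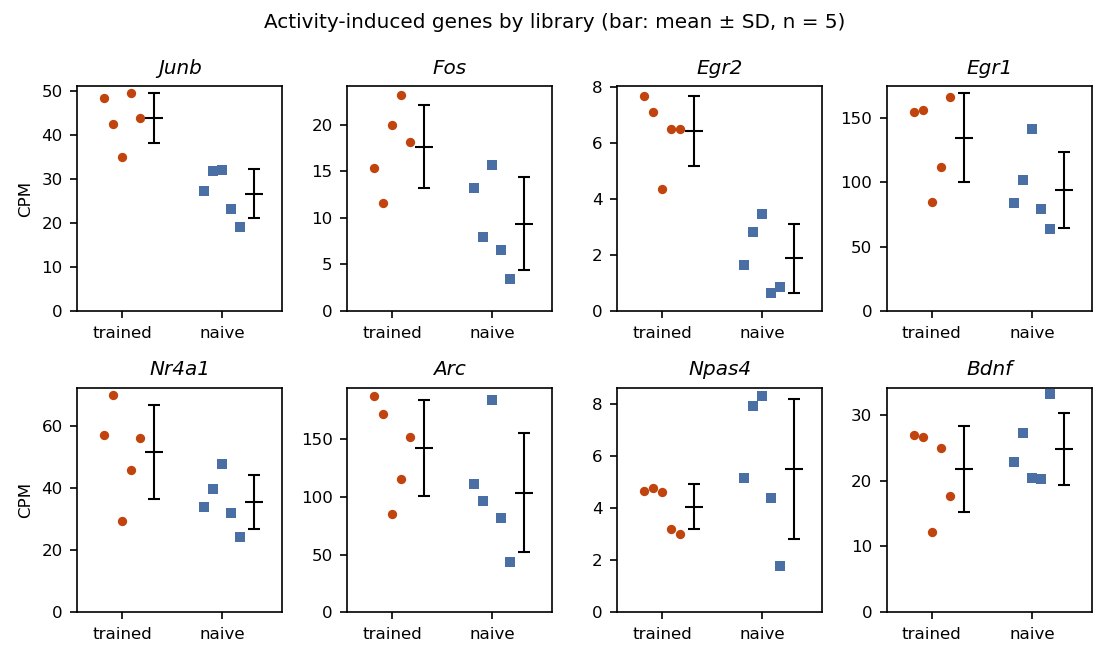
CPM of 8 activity-induced genes in each library, with trained libraries as circles on the left, naive libraries as squares on the right, and mean ± SD (n = 5) beside each group. Junb and Egr2 separate the groups, Fos, Egr1, Nr4a1 and Arc overlap with higher trained means, and Npas4 and Bdnf overlap with lower trained means.

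Other activity-induced regulators had mixed patterns over the libraries. Of 18 other activity-induced regulators 15 were above 0, with a median of 0.34 that was 0.18 without trained replicates 10 and 15 and 0.12 with 1 surrogate variable. Atf3, a stress-induced CREB-family factor, was at 2.08, 2.55, 11.3, 21.5 and 7.74 CPM in trained libraries, against 1.39, 1.52, 2.85, 2.57 and 1.14 CPM in naive libraries (2.25, SE 0.73; edgeR adjusted p = 0.383). Maff, a small Maf factor, was at 2.02, 3.99, 8.98, 7.08 and 4.08 CPM in trained libraries, against 1.79, 1.76, 2.36, 1.44 and 1.14 CPM in naive libraries (1.62, SE 0.56). Both were highest in trained replicates 10 and 15, the libraries with the highest injury-responsive phagocyte markers (6.33 and 6.67 mean log2 CPM, against 4.82 to 5.73 in the other trained and 4.45 to 4.81 in the naive libraries), and the part of those cells in these values was not tested. Tiparp, a mono-ADP-ribosyltransferase, was at 12.8 to 15.5 CPM in trained and 10.5 to 13.5 CPM in naive libraries (0.33, SE 0.09), and Klf4, a zinc finger factor, at 3.64 to 6.5 CPM in trained and 1.28 to 4.24 CPM in naive libraries. These genes showed a narrower trained range than Atf3 and Maff and a small overlap with the naive group.

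Most glucocorticoid-responsive genes had higher means in trained libraries, and the clock genes as a list did not. Per1, a clock repressor that both CREB and the glucocorticoid receptor induce, was at 56.7, 53.6, 47.1, 60.5 and 58.4 CPM in trained libraries, against 30.2, 36.5, 48.8, 28.7 and 28.4 CPM in naive libraries (0.68, SE 0.14; edgeR adjusted p = 0.379; DESeq2 adjusted p = 0.0236). Naive replicate 9 alone overlapped, above trained replicate 10. Ddit4, an mTOR inhibitor, was at 91.1, 80.4, 67.4, 82.5 and 89.4 CPM in trained libraries, against 55.6, 58.9, 64.7, 62.1 and 61.6 CPM in naive libraries (0.44, SE 0.10; adjusted p = 0.379), with no overlap. Sgk1, a kinase that regulates ion transport, was at 70.6, 92.2, 135, 190 and 145 CPM in trained libraries, against 68.8, 75.5, 98.2, 59.6 and 84.1 CPM in naive libraries (0.71, SE 0.23; adjusted p = 0.381). Trained replicates 5 and 6 did not exceed the highest naive library. Angptl4, a lipoprotein lipase inhibitor, was at 8.76 to 38.5 CPM in trained and 5.99 to 9.86 CPM in naive libraries. Fold changes were above 0 for 19 of 24 tested genes of the glucocorticoid-responsive list, which also names the receptors Nr3c1 and Nr3c2. The median was 0.25, and 8 had an unadjusted p under 0.05, against 6.62% of all genes. That count was 5 without trained replicate 10 or 16 or naive replicate 1 or 2, and 3 without trained replicate 15 or naive replicate 12, and the median was 0.14 without trained replicate 15. The count was 9 without trained replicate 5, 10 without trained replicate 6, 6 without naive replicate 9 and 8 without naive replicate 11. It was 2 both without trained replicates 10 and 15 and with 1 surrogate variable. Over all genes, 541 of 14959 were higher at that p without trained replicate 15. It was 379 of 15049 without replicates 10 and 15 and 735 of 14880 with 1 surrogate variable. Without trained replicates 5, 6, 10 and 16 in turn it was 1402 of 14996, 1197 of 15022, 722 of 14940 and 965 of 14974. Without naive replicates 1, 2, 9, 11 and 12 in turn it was 722 of 15017, 856 of 14978, 781 of 14978, 989 of 15000 and 848 of 15012. The list averaged 4.61, 4.58, 4.77, 5.22 and 4.94 log2 CPM in trained and 4.47 to 4.67 in naive libraries. Replicates 10, 15 and 16 were also highest for phagocyte markers, whose part was not tested. Of 20 clock genes 7 were above 0 and 13 below, with a median of -0.07 that turned to 0.05 without trained replicates 10 and 15 and to 0.04 with 1 surrogate variable. It was -0.02 without trained replicate 10 or 15 or naive replicate 9 and -0.14 without trained replicate 5. Per3 was at 24.1 to 36.6 CPM in trained and 28.6 to 38.6 CPM in naive libraries, with a fold change of -0.24 (SE 0.13) opposite in sign to that of Per1.

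Genes of protein synthesis, folding and breakdown had slightly higher means in trained libraries. Of 29 translation factors 20 were above 0, with a median of 0.10, and their mean log2 CPM was 7.36 to 7.49 in trained and 7.24 to 7.34 in naive libraries, without overlap. Eif4ebp1, which binds the cap-binding protein eIF4E and restrains initiation, was at 10.8, 10.6, 12.2, 15.4 and 12.3 CPM in trained libraries, against 8.54, 8.26, 7.82, 7.03 and 6.49 CPM in naive libraries (0.69, SE 0.20; edgeR adjusted p = 0.379). Eif5a, which helps ribosomes past stalling sequences, was at 297 to 318 CPM in trained and 247 to 285 CPM in naive libraries (0.19, SE 0.07). Neither gene overlapped between the groups. Eif4a1, the helicase of initiation, was at 268 to 373 CPM in trained and 245 to 275 CPM in naive libraries and overlapped. The median of the list was 0.05 without trained replicate 15 and 0.06 with 1 surrogate variable. Of 20 aminoacyl-tRNA synthetases 15 were above 0, with a median of 0.05 that ran from 0.01 without naive replicate 11 to 0.11 with 1 surrogate variable. Rars1, which charges arginine tRNA, was at 36.8 to 48.5 CPM in trained and 31.7 to 36.5 CPM in naive libraries.

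Cytosolic chaperones averaged 6.44 to 6.72 log2 CPM in trained and 6.17 to 6.34 in naive libraries, without overlap, and 22 of 23 members were above 0. Without naive replicate 11 it was 18 of 23. The median fold change was 0.07, with 0.05 without naive replicate 11 and 0.18 with 1 surrogate variable. The list mean takes in Hspb1 (2.30) and Hspa1b (1.63), far above that median, and its separation without them was not tested. Dnajb1, the heat-induced Hsp40 co-chaperone, was at 63.7, 71.0, 56.5, 70.3 and 56.5 CPM in trained libraries, against 47.0, 49.5, 53.9, 40.9 and 51.5 CPM in naive libraries (0.39, SE 0.09; edgeR adjusted p = 0.379; DESeq2 adjusted p = 0.0386). Bag3, a co-chaperone of selective autophagy, was at 20.3, 23.1, 23.9, 32 and 22.9 CPM in trained libraries, against 18.3, 19.1, 16.9, 15.4 and 19.7 CPM in naive libraries (0.45, SE 0.12). Both separated the groups by a small margin. Hspb1, a small heat shock protein that reactive astrocytes also make, was at 28.3, 32.5, 112, 108 and 53.9 CPM in trained libraries, against 19.0, 17.5, 11.2, 11.9 and 8.20 CPM in naive libraries (2.30, SE 0.64). Its highest values were in the same replicates 10 and 15 that led the phagocyte markers, whose part was not tested. Hspa1b, an inducible Hsp70, was at 1.04 to 6.67 CPM in trained and 0.784 to 1.46 CPM in naive libraries and overlapped.

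The Dnajb1 window is shown because heat shock genes carry paired GAA and TTC letters that heat shock factor reads. It lies at chr19:41431092-41431391 on the minus strand of GRCr8 (RefSeq), and capitals mark each match to GAANNTTC.
Dnajb1: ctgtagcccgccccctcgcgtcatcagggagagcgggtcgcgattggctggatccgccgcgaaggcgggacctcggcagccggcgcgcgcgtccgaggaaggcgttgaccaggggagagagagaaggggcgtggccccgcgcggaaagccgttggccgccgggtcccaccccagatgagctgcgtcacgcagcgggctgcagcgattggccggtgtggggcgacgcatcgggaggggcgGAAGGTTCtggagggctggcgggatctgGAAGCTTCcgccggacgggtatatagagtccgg
The matches lie at positions -11 to -4 and 18 to 25 from the annotated start. GAANNTTC was in 12 of 17 chaperone windows (70.6%), against 8.59% of all windows and 5.6% of those of tested genes.

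Of 32 subunits of the 26S proteasome, which degrades ubiquitinated proteins, 31 were above 0, against 47.2% of all genes, with a median of 0.13, and 13 had an unadjusted p under 0.05, against 6.62% of all genes. That count was 6 without trained replicate 15, 5 without replicates 10 and 15 and 8 without naive replicate 1 or 11, while the median stayed between 0.11 and 0.16. Over all genes, 541 of 14959 were higher at that p without trained replicate 15, and 379 of 15049 without replicates 10 and 15. It was 722 of 15017 without naive replicate 1 and 989 of 15000 without naive replicate 11. Psmb2, a core subunit, was at 75.9, 77.6, 70.8, 84.5 and 76.9 CPM in trained libraries, against 65.7, 67.9, 67.2, 62.6 and 68.4 CPM in naive libraries (0.22, SE 0.06; edgeR adjusted p = 0.379), with no overlap. The ATPase subunit Psmc4 was at 80.8 to 90.4 CPM in trained and 70.7 to 81.7 CPM in naive libraries, and Psmb4 at 126 to 154 and 121 to 128 CPM in the same order. Both overlapped slightly. Of 26 endoplasmic reticulum stress genes 23 were above 0, with a median of 0.15. Xbp1, the transcription factor of that response, was at 60.4 to 73.6 CPM in trained and 51.7 to 59.5 CPM in naive libraries (0.22, SE 0.07), with no overlap. Manf, a secreted survival factor of stressed cells, was at 43.3 to 58.2 CPM in trained and 37.3 to 43.5 CPM in naive libraries, and Pdia6, a disulfide isomerase, at 130 to 174 CPM in trained and 126 to 144 CPM in naive libraries. The median of that list was 0.10 without trained replicates 10 and 15.

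Enzymes that write and erase chromatin marks differed little. Rnf20, the ligase that monoubiquitinates histone H2B and that the study silences in its other trained group, was at 46.6, 48.5, 36.4, 46.2 and 38.5 CPM in trained libraries, against 44.7, 40.3, 41.6, 39.1 and 43.5 CPM in naive libraries (0.05, SE 0.08; edgeR adjusted p = 0.876). The trained range enclosed the naive one. Of 16 genes of H2B ubiquitination 10 were above 0, with a median of 0.01 that turned to -0.01 without trained replicate 5 and ran up to 0.08 with 1 surrogate variable. Usp49, an H2B deubiquitinase, was at 7.90 to 12.0 CPM in trained and 10.5 to 14.3 CPM in naive libraries (-0.28, SE 0.13). Histone acetylases and deacetylases averaged 5.11 to 5.14 log2 CPM in trained and 5.16 to 5.18 in naive libraries, without overlap, a gap that is small beside the values above. Of their 23 members 16 were below 0, against 52.8% of all genes, with a median of -0.04 that ran from -0.07 without trained replicates 5 and 16 to -0.01 without replicates 10 and 15. Kat5, the Tip60 acetylase, was at 40.3 to 44.4 CPM in trained and 43.2 to 50.5 CPM in naive libraries (-0.14, SE 0.07). Hdac11, a deacetylase abundant in oligodendrocytes and neurons, was at 117 to 153 CPM in trained and 151 to 177 CPM in naive libraries (-0.28, SE 0.12). Hdac1, abundant in proliferating and glial cells, ran the other way, at 33.5 to 46.3 CPM in trained and 30.1 to 37.2 CPM in naive libraries (0.25, SE 0.09). Of 16 genes of DNA methylation 9 were above 0, with a median of 0.04 that turned to -0.02 with 1 surrogate variable and was 0.01 without trained replicate 16. Uhrf1, which brings the maintenance methylase Dnmt1 to replicated DNA, was at 6.80, 13.7, 15.1, 13.6 and 7.56 CPM in trained libraries, against 6.48, 8.43, 7.33, 5.77 and 7.27 CPM in naive libraries (0.68, SE 0.22). Trained replicates 6, 10 and 15 stood above the naive libraries, as they did for the cell division genes described next.

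Genes of cell division and DNA replication gave the highest median of the 36 gene lists, except without trained replicate 6, where the injury-responsive phagocyte list had 1.27 and the cell division list 1.16. All 31 tested members lay above 0, their median fold change was 1.24, and 27 had an unadjusted p under 0.05, against 6.62% of all genes. The mean log2 CPM of the list was 2.36, 3.61, 4.10, 3.74 and 3.24 in trained libraries and 2.12 to 2.60 in naive libraries, so 4 trained libraries were above the naive range and replicate 5 was inside it. Birc5, survivin of the chromosomal passenger complex, was at 3.56, 8.30, 9.15, 6.12 and 5.55 CPM in trained libraries, against 2.45, 2.34, 2.79, 2.57 and 3.71 CPM in naive libraries (1.24, SE 0.27; edgeR adjusted p = 0.379; DESeq2 adjusted p = 0.0236). Plk1, a mitotic kinase, was at 2.02, 6.67, 9.45, 6.71 and 4.31 CPM in trained libraries, against 1.98, 2.23, 2.00, 1.69 and 2.07 CPM in naive libraries (1.55, SE 0.35; DESeq2 adjusted p = 0.0251). In both genes replicate 5 alone overlapped the naive range. Ccnb1, cyclin B1, was at 3.86 to 13.7 CPM in trained and 2.71 to 4.91 CPM in naive libraries (1.33, SE 0.33). Mcm4, a subunit of the replicative helicase, was at 23.9, 27.1, 26.3, 27.3 and 22.9 CPM in trained libraries, against 21.6, 20.3, 17.2, 17.3 and 19.6 CPM in naive libraries (0.41, SE 0.09). Its groups did not overlap, and its values varied little among the 5 trained libraries, replicate 5 included.

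In bulk tissue, fewer cells of a type and less RNA per cell cannot be told apart, and the same holds for more. Cell division itself was not measured, and these transcripts do not identify the cells that hold them. Trained replicates 6, 10 and 15, highest for the cell division list, were also highest for blood cell markers (6.34, 5.30 and 5.12 mean log2 CPM, against 3.24 and 4.04 in the other trained and 2.73 to 3.26 in the naive libraries). Leukocyte markers were highest in replicates 10, 15 and 16 (3.33, 3.28 and 2.93, against 1.94 and 2.69 in the other trained and 1.30 to 2.29 in the naive libraries), and the part of those cells was not tested. The median of the cell division list was 0.84, with 30 of 31 members above 0 and 12 at an unadjusted p under 0.05, without trained replicates 10 and 15. It was 0.72, with 29 above 0 and 23 at an unadjusted p under 0.05, with 1 surrogate variable. Over all genes, 379 of 15049 were higher at that p without trained replicates 10 and 15, and 735 of 14880 with 1 surrogate variable.

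**Figure D3:**
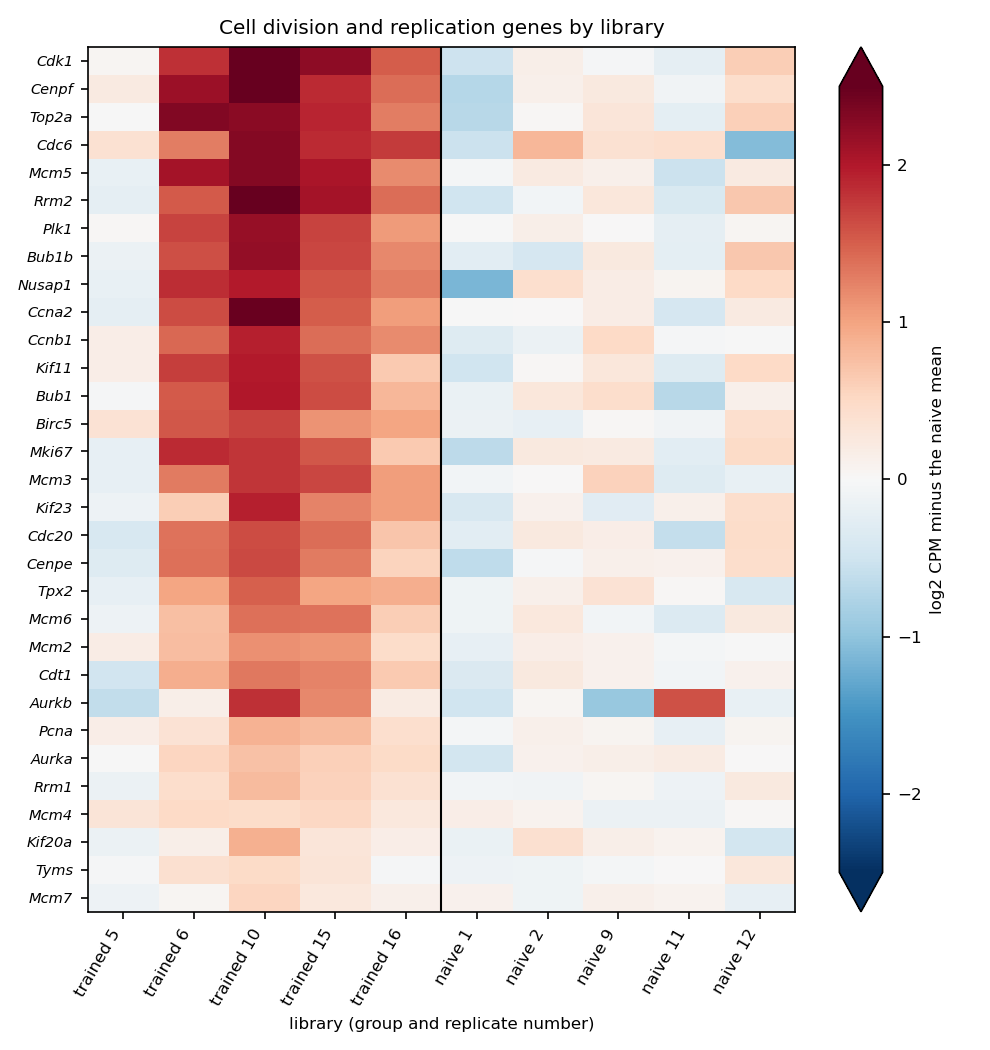
Log2 CPM of 31 cell division and replication genes minus their naive mean, with trained libraries left of the line and naive libraries right of it, and colours saturating at 2.5. Trained replicates 6, 10, 15 and 16 are red over most genes, and replicate 5 is close to the naive libraries.

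Blood and leukocyte transcripts were higher in the trained libraries, replicate 5 least. All 6 tested blood cell markers were above 0, with a median of 2.13. All 6 had an unadjusted edgeR p under 0.05, against 6.62% of all genes, and DESeq2 called all 6 at an adjusted p under 0.05, against 0.226% of all genes. Hbb, a beta-globin whose reads can be shared with other globin genes, was at 72, 514, 357, 273 and 153 CPM in trained libraries, against 72, 56.9, 70.7, 92.2 and 49.9 CPM in naive libraries (2.00, SE 0.47; edgeR adjusted p = 0.379). Alas2, the haem synthesis enzyme of red cells, was at 1.59, 15.2, 5.93, 7.4 and 5.02 CPM in trained libraries, against 2.25, 1.41, 1.70, 1.95 and 0.998 CPM in naive libraries (2.08, SE 0.51). Replicate 5 was inside the naive range and replicate 6 was highest for both genes. All 13 tested leukocyte markers were above 0, with a median of 1.07. The border macrophage gene Mrc1 was at 4.47 to 22.7 CPM in trained and 3.04 to 5.96 CPM in naive libraries, and Lyz2, lysozyme of myeloid cells, at 92.7 to 465 CPM in trained and 61.1 to 97.1 CPM in naive libraries. S100a9, a neutrophil protein, was at 1.32 to 5.40 CPM in trained and 0.176 to 0.753 CPM in naive libraries, with no overlap. The leukocyte median was 0.63 without trained replicates 10 and 15 and 0.34 with 1 surrogate variable, and the blood median was 1.65 to 2.59 over the alternatives.

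Interferon-stimulated genes were higher as a list, with large differences among trained libraries. All 39 tested members were above 0, against 47.2% of all genes, with a median of 0.87, and 31 had an unadjusted p under 0.05, against 6.62% of all genes. That count was 6 without trained replicate 15, 19 without trained replicate 10, 16 without naive replicate 1 or 2 and 2 without trained replicates 10 and 15, where the median was 0.25. With 1 surrogate variable it was 4, with a median of 0.42. Over all genes tested, the higher genes at that p were 541 of 14959 without trained replicate 15 and 722 of 14940 without replicate 10. They were 379 of 15049 without replicates 10 and 15 and 735 of 14880 with 1 surrogate variable. They were 722 of 15017 without naive replicate 1 and 856 of 14978 without naive replicate 2. Isg15, a ubiquitin-like modifier, was at 6.01, 14.0, 31.9, 36.1 and 16.1 CPM in trained libraries, against 3.71, 4.04, 10.2, 8.41 and 4.99 CPM in naive libraries (1.73, SE 0.49; edgeR adjusted p = 0.379). Cxcl10, a chemokine that draws T cells, was at 1.23, 2.03, 3.99, 25.0 and 10.6 CPM in trained libraries, against 0.992, 1.46, 2.73, 2.64 and 1.14 CPM in naive libraries (2.26, SE 0.68). Trained replicate 15 was highest for both genes and replicate 5 was inside the naive range. Ifi35, an interferon-induced leucine zipper protein, was at 5.52 to 15.5 CPM in trained and 5.15 to 7.03 CPM in naive libraries (0.79, SE 0.24). The interferon-stimulated response element, searched as GAAA, any 2 bases and GAAA on both strands, was in 18 of 30 windows of these genes (60%), against 3.92% of all windows and 2.87% of those of tested genes.

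Antigen presentation genes shared part of that pattern. Of 22 tested 19 were above 0, with a median of 0.32 that turned to -0.06 both without trained replicates 10 and 15 and with 1 surrogate variable, and was 0.55 without trained replicates 5 and 16. The immunoproteasome subunit Psmb9 was at 8.15, 14.4, 19.0, 17.7 and 18.6 CPM in trained libraries, against 7.41, 8.14, 9.88, 8.66 and 9.19 CPM in naive libraries (0.85, SE 0.28; edgeR adjusted p = 0.384). Trained replicates other than 5 exceeded the naive range. Psmb8, a second immunoproteasome subunit, was at 4.11 to 9.63 CPM in trained and 2.81 to 6.06 CPM in naive libraries, and the proteasome activator Psme2 at 28.0 to 55.7 CPM in trained and 27.1 to 34.0 CPM in naive libraries. The same element was in 8 of 19 windows of the antigen presentation genes (42.1%). Of 15 complement genes 13 were above 0, with a median of 0.48 that was 0.28 without trained replicates 10 and 15, 0.11 with 1 surrogate variable and 0.88 without naive replicate 11. C5ar1, the receptor for complement fragment C5a, was at 3.92 to 16.9 CPM in trained and 2.75 to 4.77 CPM in naive libraries.

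The cytokine-response, reactive astrocyte and phagocyte lists each had their highest means in trained replicates 10, 15 and 16. Of 21 NF-kappaB and cytokine-response genes 18 were above 0, with a median of 0.51 that was 0.34 without trained replicate 15, 0.33 without replicates 10 and 15 and 0.17 with 1 surrogate variable. Ccl7, a monocyte chemokine, was at 0.981, 1.11, 6.28, 17.6 and 5.26 CPM in trained libraries, against 0.198, 0.293, 1.52, 0.314 and 0.214 CPM in naive libraries (3.60, SE 0.93; edgeR adjusted p = 0.379; DESeq2 adjusted p = 0.0386). Naive replicate 9 alone overlapped the trained range. Cebpd, an inflammatory transcription factor, was at 10.8, 15.6, 17.2, 28.9 and 19.7 CPM in trained libraries, against 9.13, 8.55, 9.09, 9.54 and 10.3 CPM in naive libraries (0.99, SE 0.28), with no overlap. Its relative Cebpb was at 6.22 to 11.8 CPM in trained and 4.27 to 5.27 CPM in naive libraries, again apart. Of 23 reactive astrocyte genes 22 were above 0, with a median of 0.99. Gfap, the astrocytic intermediate filament protein, was at 3817, 5035, 6348, 6600 and 5564 CPM in trained libraries, against 3082, 2967, 2798, 4167 and 3084 CPM in naive libraries (0.77, SE 0.24; adjusted p = 0.38). Trained replicate 5 was below naive replicate 11 and the other trained libraries were above every naive one. S1pr3, a sphingosine-1-phosphate receptor, was at 21.1 to 72.9 CPM in trained and 17.8 to 29.2 CPM in naive libraries.

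Fold changes were above 0 for 27 of 28 injury-responsive phagocyte genes, at a median of 1.05, and their mean log2 CPM did not overlap between the groups (4.82 to 6.67 in trained and 4.45 to 4.81 in naive libraries). Spp1, osteopontin, was at 134, 280, 725, 830 and 95.1 CPM in trained libraries, against 56.6, 59.9, 26.8, 38.5 and 39.6 CPM in naive libraries (3.22, SE 1.04; edgeR adjusted p = 0.381). Lgals3, galectin-3, was at 29.5, 29.0, 178, 187 and 83.8 CPM in trained libraries, against 19.3, 18.8, 23.0, 18.4 and 13.5 CPM in naive libraries (2.45, SE 0.80). Both genes separated the groups, with the highest values in replicates 10 and 15, and Spp1 was lowest among trained libraries in replicate 16. Fabp5, a fatty acid carrier, was at 131 to 214 CPM in trained and 99.9 to 110 CPM in naive libraries, and the scavenger receptor Msr1 at 4.12 to 28.5 CPM in trained and 0.397 to 3.92 CPM in naive libraries, both apart. Resident microglia markers had a median of 0.18 over 15 genes, with 0.08 without trained replicates 10 and 15 and 0.02 with 1 surrogate variable. Itgam, a complement receptor subunit of microglia and myeloid cells, was at 33.3 to 94.8 CPM in trained and 31.9 to 42.7 CPM in naive libraries. The median was 0.54 for reactive astrocyte and 0.55 for phagocyte genes without trained replicates 10 and 15, and 0.31 and 0.25 with 1 surrogate variable.

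Matrix and hypoxia genes gave mixed values. Of 15 p53 target genes 11 were above 0, with a median of 0.24. That median was 0.13 without trained replicates 10 and 15 and 0.04 with 1 surrogate variable. Of 26 scar and matrix genes 16 were above 0, with a median of 0.06 that turned to -0.06 without trained replicate 10, to -0.10 without replicates 10 and 15 and to -0.21 with 1 surrogate variable, and was 0.22 without trained replicate 6. Fn1, fibronectin, was at 34.5 to 92.6 CPM in trained and 20.8 to 31.9 CPM in naive libraries (1.18, SE 0.38), with no overlap. Plau, urokinase, was at 2.68 to 22.6 CPM in trained and 1.26 to 2.87 CPM in naive libraries, and Anxa1, annexin A1, at 9.56 to 67.6 CPM in trained and 7.91 to 15.2 CPM in naive libraries. The basement membrane collagen Col4a2 ran the other way, at 35.4 to 47.8 CPM in trained and 43.0 to 61.9 CPM in naive libraries (-0.28, SE 0.11). Among p53 targets Gdf15, a stress cytokine, was at 1.29, 0.327, 14.7, 18.6 and 5.14 CPM in trained libraries, against 2.18, 1.41, 1.88, 0.69 and 1.57 CPM in naive libraries (2.38, SE 1.01; edgeR adjusted p = 0.453). Trained replicates 5 and 6 were below or inside the naive range, and the fold change was -0.18 with 1 surrogate variable. Bax, a mediator of apoptosis, was at 26.7 to 36.8 CPM in trained and 23.3 to 29.5 CPM in naive libraries. Hypoxia genes had a median of 0.02 over 16 genes that turned to -0.01 without naive replicate 11 and to -0.02 without trained replicates 5 and 16. P4ha1, a collagen prolyl hydroxylase, was at 49.9 to 66.1 CPM in trained and 45.9 to 51.3 CPM in naive libraries, and Vegfa, the vascular growth factor, at 40.6 to 91.7 CPM in trained and 54.7 to 113 CPM in naive libraries.

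Synaptic and channel genes had lower means as lists. All 31 tested presynaptic release genes were below 0, against 52.8% of all genes, with a median of -0.23 that was -0.15 without trained replicate 10, -0.09 without replicates 10 and 15 and -0.04 with 1 surrogate variable. Their mean log2 CPM was 7.94, 7.80, 7.45, 7.48 and 7.61 in trained libraries and 7.74 to 8.06 in naive libraries, so replicates 5 and 6 were inside the naive range. Rims1, a scaffold of the vesicle release site, was at 338, 247, 227, 218 and 236 CPM in trained libraries, against 337, 325, 388, 346 and 275 CPM in naive libraries (-0.40, SE 0.12; edgeR adjusted p = 0.379). Of 41 voltage-gated channel genes 37 were below 0, with a median of -0.18 that ran from -0.28 without trained replicate 6 to -0.11 without naive replicate 12, and was -0.06 without trained replicates 10 and 15 and -0.02 with 1 surrogate variable. Kcnq5, a subunit of the M-type potassium channel, was at 93.2, 93.8, 81.2, 78.8 and 92.8 CPM in trained libraries, against 112, 106, 119, 98.3 and 136 CPM in naive libraries (-0.38, SE 0.14; adjusted p = 0.419), with no overlap. Kcna2, a potassium channel of axons, was at 165 to 240 CPM in trained and 216 to 315 CPM in naive libraries. Of 37 glutamate receptor and postsynaptic genes 31 were below 0 and of 16 GABA receptor genes 15 were below 0. Each list had a median of -0.12, which turned to 0.07 and 0.06 without trained replicates 10 and 15 and to 0.08 and 0.10 with 1 surrogate variable, and was -0.02 in both without trained replicate 10. Grik1, a kainate receptor subunit, was at 8.77, 6.34, 5.05, 5.62 and 9.16 CPM in trained libraries, against 11.0, 10.3, 11.7, 10.2 and 9.55 CPM in naive libraries (-0.60, SE 0.19). Gabbr2, a subunit of the GABA-B receptor, was at 230 to 333 CPM in trained and 271 to 384 CPM in naive libraries. Of 40 genes of the CREB pathway and memory kinases 27 were below 0, with a median of -0.04 that turned to 0.02 with 1 surrogate variable and ran from -0.12 without trained replicate 6 to -0.01 without trained replicate 16. Pde4b, a cAMP phosphodiesterase, was at 34.9 to 42.8 CPM in trained and 42.8 to 57.6 CPM in naive libraries (-0.33, SE 0.10).

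Markers of cell types and regions differed between the libraries. Pan-neuronal markers had a median of -0.20 over 12 genes, which turned to 0.02 with 1 surrogate variable and was -0.02 without trained replicates 10 and 15. CA1 pyramidal markers had a median of 0.04 over 8 genes and ranged from -0.18 without trained replicate 6 to 0.41 without replicates 10 and 15, and the trained libraries ran from 4.64 mean log2 CPM in replicate 10 to 6.68 in replicate 6, against 5.42 to 6.27 in naive libraries. All 9 tested CA3 pyramidal markers were below 0, with a median of -0.29 that stayed between -0.40 and -0.22. Spock1, a proteoglycan of CA3 pyramidal neurons, was at 78.9, 77.6, 93.4, 75.5 and 69.1 CPM in trained libraries, against 121, 104, 140, 101 and 108 CPM in naive libraries (-0.54, SE 0.14; edgeR adjusted p = 0.379), with no overlap. Of 16 oligodendrocyte markers 14 were below 0, with a median of -0.23 that was -0.12 without trained replicate 6, -0.42 without replicate 10 and -0.50 without replicates 10 and 15. The gap junction gene Gjc3 was at 14.1 to 26.5 CPM in trained and 25.3 to 32.6 CPM in naive libraries (-0.57, SE 0.16).

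Vascular and astrocyte genes did not share 1 direction. Of 12 endothelial markers 10 were below 0, with a median of -0.16 that was -0.28 without trained replicates 5 and 16, -0.09 without trained replicate 10 or naive replicate 11, and -0.02 without trained replicates 10 and 15. Kdr, the main receptor for vascular growth factor, was at 10.4 to 13.5 CPM in trained and 14.7 to 17.3 CPM in naive libraries (-0.41, SE 0.11). Rgs5, a pericyte gene, was at 34.3 to 42.6 CPM in trained and 45.8 to 53.5 CPM in naive libraries (-0.35, SE 0.11), and neither gene overlapped. Tagln, a smooth muscle protein, was at 26, 153, 275, 62.3 and 103 CPM in trained libraries, against 33.4, 40.6, 30.2, 37.9 and 29.1 CPM in naive libraries (1.85, SE 0.53). Only trained replicate 5 was below the naive range for Tagln and the other trained libraries were above it. Astrocyte markers had a median of -0.03 over 17 genes, which turned to 0.04 without trained replicate 10 and to 0.09 without replicates 10 and 15. Glul, the glutamine synthetase of astrocytes, was at 2277, 2197, 1887, 2142 and 2228 CPM in trained libraries, against 1876, 1673, 1776, 1749 and 1824 CPM in naive libraries (0.27, SE 0.10), with no overlap.

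Markers of tissue outside CA1 varied widely between single libraries. Choroid plexus markers had a median of -0.92, which was -0.19 without trained replicates 5 and 16 and -2.51 without replicates 10 and 15, and ran from -1.70 without trained replicate 10 to -0.59 without naive replicate 12. Slc4a5, a bicarbonate transporter of that epithelium, was at 1.23, 13.1, 46.9, 28.7 and 2.19 CPM in trained libraries, against 29.9, 20.9, 59.2, 24.7 and 66.3 CPM in naive libraries (-1.12, SE 0.74). Striatal markers had a median of 0.18 that turned to -1.06 without trained replicate 10, and was 0.57 without naive replicate 1 and 0.02 without naive replicate 12. Penk, the enkephalin precursor of striatal neurons, was at 18.0, 16.8, 183, 16.1 and 24.9 CPM in trained libraries, against 74.0, 21.1, 39.9, 42.9 and 19.9 CPM in naive libraries (0.39, SE 0.65). Tshz2, a neocortical marker, was at 11.9 to 16.4 CPM in trained and 10.7 to 49.6 CPM in naive libraries. The part of these marker differences in the gene values above was not tested, beyond the fits without replicates 10 and 15 and without replicates 5 and 16.

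**Figure D4:**
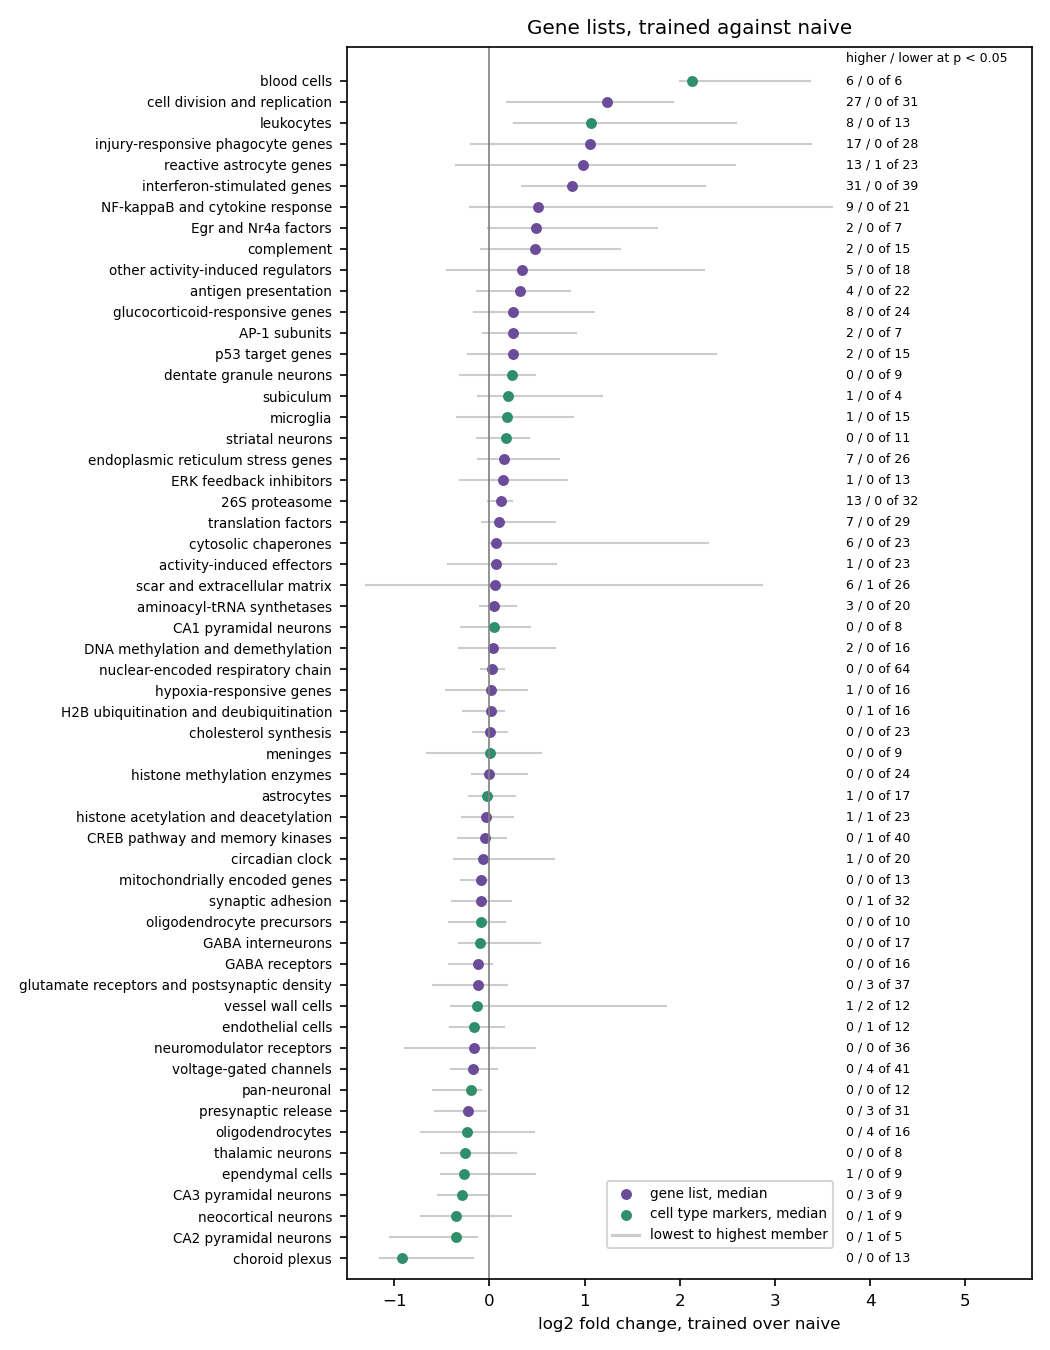
Median log2 fold change of each of 57 lists (points) with the lowest and highest member (lines), in trained over naive libraries, and counts of members higher and lower at an unadjusted p under 0.05. Blood cell, cell division and leukocyte lists lie furthest to the right and choroid plexus markers furthest to the left.

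**Figure D5:**
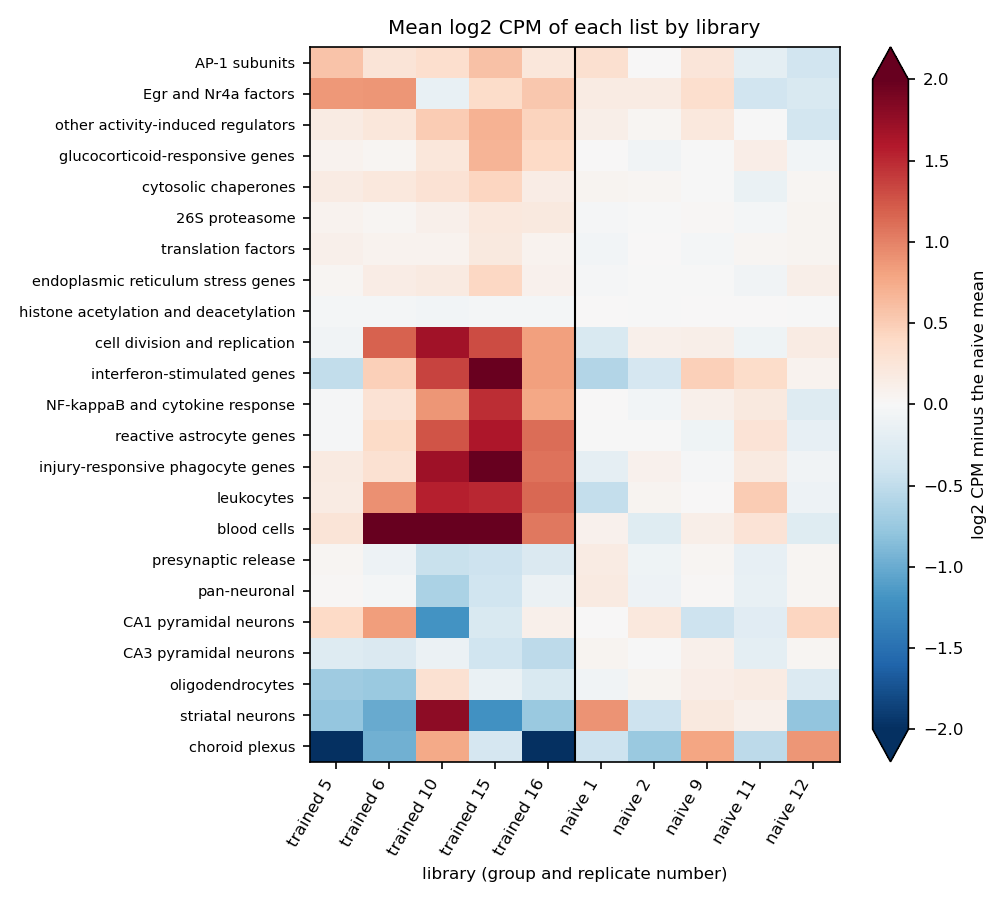
Mean log2 CPM of 23 lists minus the naive mean, by library, with trained libraries left of the line and naive libraries right of it, and colours saturating at 2. Trained replicates 10 and 15 are reddest for the interferon, reactive astrocyte and phagocyte lists, replicate 5 is near the naive libraries for them, and the Egr and Nr4a list is highest in replicates 5 and 6.

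The order of trained libraries thus differed between the Egr and Nr4a list and the phagocyte list. The Egr and Nr4a list averaged 5.40, 5.42, 4.39, 4.91 and 5.08 log2 CPM in trained libraries and 4.16 to 4.88 in naive libraries. The injury-responsive phagocyte list averaged 4.82, 4.94, 6.33, 6.67 and 5.73 log2 CPM in the same trained libraries. Replicates 5 and 6 were highest for Egr and Nr4a factors and lowest for phagocyte genes, and replicate 10 was lowest for Egr and Nr4a factors, for CA1 markers and for pan-neuronal markers (7.21 against 7.43 to 7.85 in the other trained libraries). These are 5 libraries, and no test of the relation was made.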

How the data were processed

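RNA from dorsal CA1 was sequenced from a stranded TruSeq mRNA library after 14 PCR cycles, per the labels' protocols. The authors trimmed reads with Trim Galore, checked them with FastQC and made the raw gene counts with featureCounts 2.0.1 on Rnor_6.0, per the submitters' processing notes, which also name DESeq2. Which aligner, annotation release and strand setting were used is not given in the sources used here. A deposited normalized table was left unused.

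Genes were filtered with filterByExpr, which kept 99.9% of counts, and tested with edgeR 4.0.16 (R 4.3.3), using TMM scaling, robust quasi-likelihood fits to all 15 libraries in 3 groups (12 residual degrees of freedom) and the contrast of trained over naive rats under scrambled siRNA, adjusted by Benjamini-Hochberg. Alternatives used DESeq2 1.42.0, limma 3.58.1 (voom), sva 3.50.0 (1 surrogate variable), other scaling and filters, and leaving libraries out. The surrogate variable was estimated from these libraries and can hold part of the training difference. The scripts were tested on simulated data. Depth limits genes of a few CPM most. No replicate pair agreed within counting noise (lowest chi-square per degree of freedom 9.52), so none was merged.

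The comparison and the gene lists were chosen with earlier results of these data known. Genes were named by a rule: 12 per direction of smallest p with a mean of at least 1 CPM, then up to 4 members of smallest p per gene list, 3 per cell type list, and Fos, Arc, Egr1, Npas4, Bdnf, Junb, Egr2, Per1 and Rnf20. The mean log2 CPM of a list used a prior count of 2. Promoter windows were matched by symbol for 12998 genes of the table and 10896 of those tested.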

Additional observations from a re-analysis of the deposited data

Results flagged for a closer look

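Of 356 groups of 5 libraries checked, 25 held a value far from the other 4 by Dixon's test (critical value 0.71), and chance alone gives about 5% of groups. In trained replicate 15, Cnnm3 was at 30.7 CPM (36.7 to 38.3 in the other trained libraries), Mecom at 1.78 (3.07 to 3.49), Angptl4 at 38.5 (8.76 to 17.1), Psma5, a core proteasome subunit, at 103 (81.6 to 87.6), Xbp1 at 73.6 (60.4 to 62.6) and Rars1 at 48.5 (36.8 to 39.9). The translation factor list of that library averaged 7.49 log2 CPM, against 7.36 to 7.39. In trained replicate 10, Penk was at 183 CPM (16.1 to 24.9) and S100a9 at 5.40 (1.32 to 2.29). The striatal marker list of replicate 10 averaged 5.69 log2 CPM, against 2.69 to 3.15, and its meningeal list 4.75, against 3.76 to 3.83. In trained replicate 5, Fosb was at 6.13 CPM (4.37 to 4.77) and Rims1 at 338 (218 to 247), and in trained replicate 16 the histone methylation list averaged 5.34 log2 CPM, against 5.51 to 5.57.

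Among naive libraries, replicate 11 had Gfap at 4167 CPM (2798 to 3084 in the other naive libraries), C5ar1 at 4.77 (2.75 to 3.27), Mrc1 at 5.96 (3.04 to 3.56) and Tshz2 at 49.6 (10.7 to 21.0), and its cholesterol synthesis list averaged 5.76 log2 CPM, against 5.89 to 5.94. Replicate 9 had Ccl7 at 1.52 CPM (0.198 to 0.314), Ccl2, a monocyte chemokine, at 4.79 (0.57 to 1.79) and Psme2 at 34.0 (27.1 to 28.7). Replicate 12 had Daam2 at 47.0 CPM (60.4 to 64.1) and Klf4 at 1.28 (3.51 to 4.24), and replicate 1 had Egr4 at 11.6 (5.34 to 6.12).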

How the results depend on the processing

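No paired analysis was possible because the trained and naive groups share no replicate number. Across 20 alternatives, of which 2 (without trained replicates 10 and 15, and without trained replicates 5 and 16) were chosen after seeing the data, 116 of 120 named genes and 33 of 57 list medians kept their sign. Most named genes were picked for a small p in these libraries, and the alternatives refit the same libraries. A kept sign is therefore no independent support. edgeR called no gene in any fit that left libraries out. DESeq2 called 39 genes higher and 14 lower, and 1 surrogate variable gave 1 higher, with 1076 genes lower at an unadjusted p under 0.05. Leaving out 1 library at a time moved the count at that p from 541 to 1402 for higher genes and from 330 to 740 for lower genes, the lowest of each without trained replicate 15. Without trained replicates 10 and 15 there were 379 higher genes, and without replicates 5 and 16 there were 878 lower genes. The Penk fold change reversed to -0.26 with limma-voom, -0.49 with 1 surrogate variable and -0.98 without trained replicates 10 and 15, and ran from -1.06 to 0.74 when 1 library was left out. With 1 surrogate variable Bdnf was at 0.12 and Gdf15 at -0.18. Wfs1 ran from -0.023 without trained replicate 6 to 0.64 without trained replicate 10. The mitochondrial share ran from -1.0035 to 0.205 percentage points. The cause of these changes was not tested.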

Other observations

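Genes of energy metabolism and lipid synthesis differed little between trained and naive rats. Of 64 nuclear-encoded respiratory chain genes 45 were above 0, with a median of 0.03 that turned to -0.03 without trained replicate 16. All 13 mitochondrially encoded genes were below 0, with a median of -0.08 that turned to 0.03 without trained replicate 15, and Mt-nd4, a subunit of complex I, was at 152 to 243 CPM in trained and 162 to 299 CPM in naive libraries. Cholesterol synthesis genes had a median of 0.01 over 23 genes, which turned to -0.06 without trained replicate 6. Dentate granule neuron markers had 6 of 9 members above 0, with a median of 0.23, and all 5 CA2 markers were below 0, with a median of -0.35. The CA2 list shares Sostdc1 with the choroid plexus list and Amigo2 with the reactive astrocyte list. It averaged 3.68 and 3.67 log2 CPM in trained replicates 5 and 16, against 4.99 to 5.25 in the other trained and 5.12 to 5.80 in the naive libraries. Replicates 5 and 16 were also lowest for choroid plexus markers, whose part was not tested. The CA2 median was -0.24 without them. Rarres2, chemerin, was at 16.7 to 29.2 CPM in trained and 14.5 to 17.4 CPM in naive libraries (a log2 fold change of 0.47, SE 0.16).

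Eno2, the enolase of neurons and a standard neuronal marker, was at 0.235 to 0.827 CPM in trained and 0.41 to 0.86 CPM in naive libraries. Snap25, a synaptic vesicle fusion protein of the same pan-neuronal list, was at 1129 to 1864 CPM in trained and 1637 to 2344 CPM in naive libraries. Both genes were among the 3 pan-neuronal members of smallest p, and their levels were set side by side after the values were seen. The source of the low Eno2 counts was not tested.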
